A study of Drosophila melanogaster with 2 samples.

Results

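The 38 genes described here encode enzymes that flies secrete to digest food: 17 Jonah-type serine proteases, 8 trypsins, 7 lysozymes, 3 amylases, 2 lipases and 1 carboxypeptidase. The tables hold 12083 genes with reads, and 31 of the 38 are among them. The list was chosen by function and with the measured reads of both libraries already known, so the differences between the libraries are given as descriptions and no test is attached. RNA came from heads of adult w1118 flies, a white-eyed laboratory strain of Drosophila melanogaster. One group received a standard control diet, and the other received that diet with sucralose, a sweetener made by chlorinating sucrose that yields almost no energy. Adults of 4 to 7 days spent 6 days on either food and were 10 to 14 days old when sampled. With 1 library per diet, no spread between replicates can be given. The labels give no sex, number of flies, time of day or time since the last meal.

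Food proteins in the fly midgut are cut inside the chain by serine endopeptidases, among them the Jonah proteases and the trypsins, and trimmed from the end by carboxypeptidases. Amylases break starch into maltose units, and lipases release fatty acids from dietary fat. The lysozyme genes of the fly cluster are expressed mostly in the gut, where they digest bacterial cell walls, and LysP is known from the adult salivary gland. These genes are textbook markers of the midgut, an organ of the thorax and abdomen. In a tissue sample such as this, fewer enzyme-producing cells and less RNA per cell cannot be told apart.

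The digestive enzymes had little RNA in control heads and far less in heads of sucralose-fed flies. All 38 genes together had 4325 unique reads in the control library (0.0421% of 10.3 M) and 190 in the sucralose library (0.00182% of 10.4 M). This summed level was 23.2-fold lower in the sucralose library, with an exact binomial (Clopper-Pearson) 95% interval of 20.1 to 27.0. Every fold here compares scaled reads of the 2 libraries, and every interval covers counting error only. The carboxypeptidase, the lipases and the Jonah proteases differed by the widest margins, and the amylases by the narrowest. Without CG12374, the member with most reads, the remaining 37 genes were 16.99-fold lower (14.7 to 19.8).

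Of the 38 genes, 15 had at least 50 reads summed over both libraries, 16 had fewer, and 7 had no read in either table. All 15 were at least 1.5-fold lower in the sucralose library, while 4.12% of all 8889 genes over the same floor were that much lower and 1.96% that much higher. At least 10-fold lower were 13 of the 15, where the background was 0.202%, or 18 genes. These counts used log2 differences of CPM, which are counts scaled to a common library size, with 0.5 CPM added, and with 5 CPM added only 1 of the 15 passed the 10-fold mark. The list was drawn up with this contrast known, and a gene low in both libraries could not reach the floor, so the counts describe the genes and lend no support. The median log2 difference of the 15 was -4.29, and that of all genes over the floor was -0.00.

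**Figure D1:**
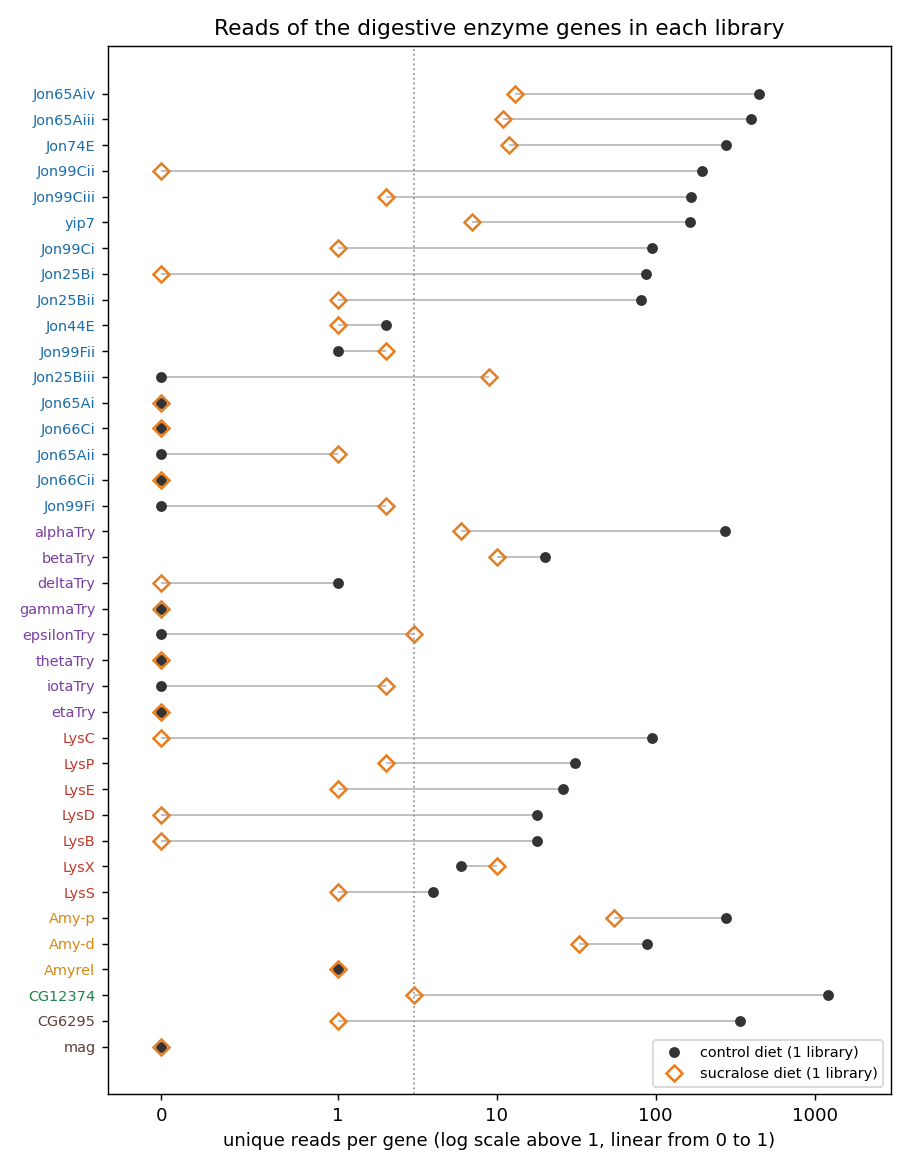
Unique reads of each of the 38 genes in the control (filled circles) and sucralose (open diamonds) libraries, on an axis that is logarithmic above 1 read, with gene names coloured by enzyme class and a dotted line at 3 reads. Of the genes with at least 50 summed reads, Amy-p and Amy-d alone kept more than 13 reads in the sucralose library.

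Among the Jonah proteases, a family of chymotrypsin-like and trypsin-like enzymes, 9 of 17 passed the floor and all 9 were at least 10-fold lower. The class summed to 1920 control and 62 sucralose reads, 31.6-fold lower (24.5 to 41.3). The members differed widely in level even within 1 stretch of the genome. Jon65Aiv had 448 control and 13 sucralose reads (48.3 and 1.38 RPKM, which are reads scaled by gene length and library total), 35.1-fold lower with an interval of 20.3 to 66.5. Its neighbour Jon65Aiii had 400 and 11 reads (44.5 and 1.21 RPKM), 37.1-fold lower (20.5 to 74.9). The next genes along, Jon65Aii and Jon65Ai, were almost silent in both libraries, with 0 and 1 read for the former and none for the latter. The 2 adjacent genes of substantial level thus had overlapping intervals, and the others could not be compared at this depth.

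The 3 neighbouring genes of the Jon25B group did not move as 1. Jon25Bi had 87 reads in the control and none in the sucralose library, at least 29.6-fold lower when the 0 is set at 3 reads, with an exact interval that starts at 23.5-fold. Jon25Bii had 81 reads and 1 read, 82.6-fold lower with a wide interval of 14.4 to 3301. Jon25Biii, next to Jon25Bii, went the other way, with no control read and 9 sucralose reads. That is at least 2.94-fold higher against a limit of 3 control reads, and its exact interval starts at 1.94-fold. The 9 reads lay over 373 of the 823 bases of the gene model, so they were not copies of 1 fragment. Jon25Biii was listed at 0 in the library where its neighbours had 87 and 81 reads. In the other library its 9 reads were the most of the 3 genes.

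The Jon99C group was low throughout the sucralose library. Jon99Ci had 95 reads and 1 read (10.2 and 0.106 RPKM), 96.8-fold lower with an interval from 17.0 to 3865. Jon99Cii had 197 reads and none. Jon99Ciii had 166 and 2 reads, 84.6-fold lower (23.1 to 704.4). With so few sucralose reads, the sizes of these folds are poorly known, as the wide intervals show. Outside the groups, Jon74E had 278 and 12 reads, 23.6-fold lower (13.3 to 46.3), and yip7, a Jonah-like protease gene first found through a protein interaction, had 165 and 7 reads, 24.0-fold lower (11.4 to 60.7). Jon44E (2 and 1 reads), Jon99Fi (0 and 2) and Jon99Fii (1 and 2) were at or under 3 reads in both libraries, and Jon66Ci and Jon66Cii were at 0 in both.

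Most unique trypsin reads of the control library came from 1 gene. The gene alphaTry had 272 control and 6 sucralose reads (30.8 and 0.669 RPKM), 46.2-fold lower (21.0 to 127.0). The other 7 trypsin genes together had 21 and 15 reads, a ratio of 1.43 (0.701 to 2.98) that counting error alone could give. Most of those reads belonged to betaTry, with 20 control and 10 sucralose reads, 2.04-fold lower (0.911 to 4.88). The gene deltaTry had 1 control read and none in the sucralose library. The genes epsilonTry (0 and 3 reads) and iotaTry (0 and 2) had reads only in the sucralose library, at or under the limit of 3 reads. No read was listed for gammaTry, thetaTry or etaTry. Only unique reads were counted, and similarity between the trypsin genes was not computed. Reads shared by similar copies would be missing, so the levels of these 7 genes are uncertain. The trypsin class as a whole was 14.2-fold lower (9.13 to 23.3), a value that rests on alphaTry.

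CG12374, a carboxypeptidase gene, was the most abundant member per length in the control library and among the rarest in the sucralose library. Its level was 80.3 RPKM in the control, rank 969 among 11521 listed genes, and 0.196 RPKM in the sucralose library, rank 10506 among 11588. Its 1208 control reads covered 99.0% of the gene model, and its 3 sucralose reads covered 147 bases, as 3 separate reads of 49 bases would. The ratio was 410.4-fold lower, with an interval of 140.1 to 1993.

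CG6295, a lipase gene, had 340 reads at 30.3 RPKM in the control library and 1 read in the sucralose library. The ratio of 347 had an interval of 61.8 to 13728, so only its lower bound is informative. The magro gene mag, for an intestinal lipase that also cleaves cholesterol esters, had no read in either library. Thus the lipase signal came from 1 of the 2 genes.

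The lysozyme genes were rarer and split by gene. LysB, LysC, LysD and LysE, the midgut genes of the cluster, summed to 157 control reads and 1 sucralose read, 160.0-fold lower (28.3 to 6361). LysC had 95 reads and none, LysB and LysD each had 18 and none, and LysE had 26 and 1. LysP, the salivary gland gene, had 31 and 2 reads, 15.8-fold lower (4.02 to 136.2), so its interval lay above 1 as well. LysS, known from the larval gut, had 4 and 1 reads, with an interval that includes no difference. LysX, known from the gut at metamorphosis and set apart from the other 6 genes on the chromosome, had 6 control and 10 sucralose reads, 1.64-fold higher with an interval of 0.538 to 5.47. Of the 14 lysozyme reads in the sucralose library, 10 were thus LysX reads. The class was 14.4-fold lower with LysX (8.39 to 26.9) and 48.9-fold lower without it (18.8 to 181.4).

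The amylases kept a larger part of their RNA than any other class. Amy-p, the proximal gene of the amylase pair, had 277 control and 55 sucralose reads (16.9 and 3.30 RPKM), 5.13-fold lower (3.83 to 6.99). Amy-d, the distal copy, had 88 and 33 reads (5.29 and 1.95 RPKM), 2.72-fold lower (1.80 to 4.19). The intervals of the pair overlap narrowly. The related gene Amyrel had 1 read in each library. The upper bound of the summed amylases (4.19-fold lower, 3.32 to 5.35) lies under the lower bound of the Jonah proteases (24.5) and of the trypsins (9.13), the lysozymes (8.39) and CG12374 (140.1).

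**Figure D2:**
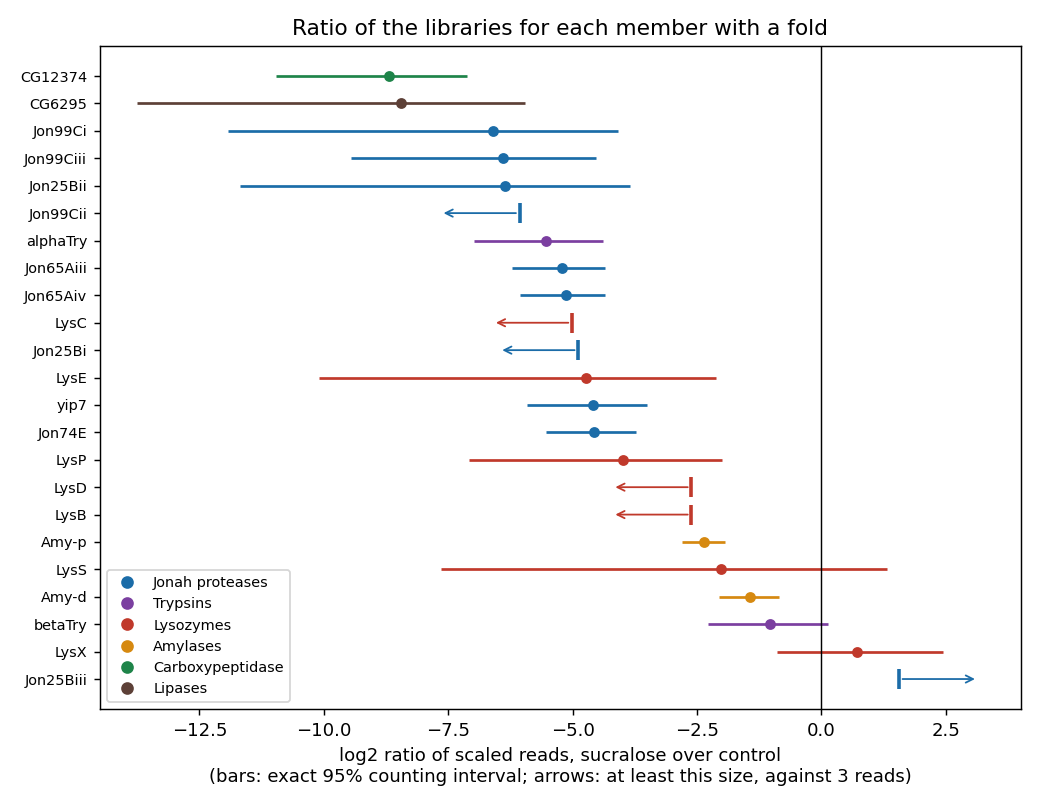
Log2 ratio of scaled reads, sucralose over control, for the members with more than 3 reads in at least 1 library, coloured by enzyme class, with exact 95% counting intervals as bars and arrows where 1 library had 0 reads and the ratio is a lower bound against 3 reads. CG12374 and CG6295 stand farthest to the left, the amylases lie nearest to 0 among the genes over the floor, and LysX and Jon25Biii lie on the other side of 0.

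The make-up of the digestive enzyme RNA differed between the libraries. Amylases made up 8.46% of the 4325 control reads of the 38 genes (exact interval 7.65 to 9.33) and 46.8% of the 190 sucralose reads (39.6 to 54.2). CG12374 alone was 27.9% of the control reads (26.6 to 29.3) and 1.58% of the sucralose reads (0.327 to 4.54). The Jonah proteases held 44.4% (42.9 to 45.9) and 32.6% (26.0 to 39.8). The trypsins held 6.77% (6.04 to 7.56) and 11.1% (6.97 to 16.4), a difference their intervals do not separate. The classes thus did not differ by 1 common factor.

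**Figure D3:**
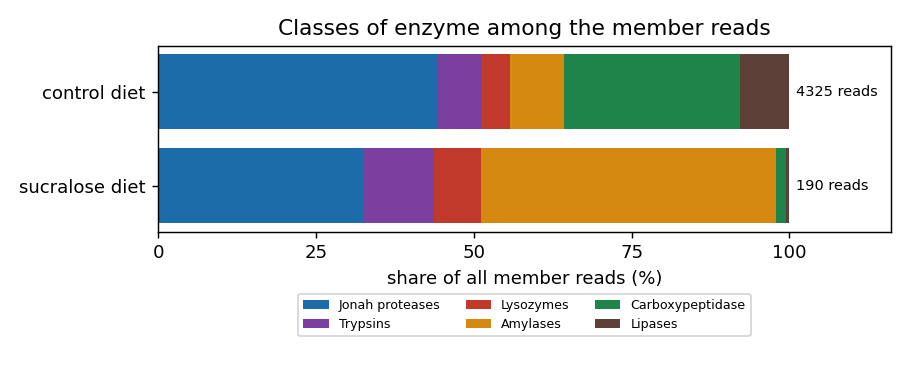
Share of all reads of the 38 genes held by each enzyme class in each library, in percent, with the number of reads at the right. The amylase block is 8.46% of the control bar and 46.8% of the sucralose bar, and the carboxypeptidase block is 27.9% and 1.58%.

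Some members had no detectable read in the sucralose library. Of 20 members with at least 10 control reads, 5 had no sucralose read: Jon25Bi, Jon99Cii, LysB, LysC and LysD. All but Jon25Bi belong to groups of closely similar copies, in which levels of single copies are uncertain. Over all 9529 genes with that many control reads, 0.189% had none. Those genes span all levels, and a 0 is likelier for genes with few control reads, such as LysB and LysD with 18 each. A count of 0 allows up to 3 reads, or 0.287 CPM in the sucralose library and 0.293 CPM in the control library, so a remaining low level was not detectable at this depth. This share uses the contrast by which the list was chosen and is a description.

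How the reads lay along the genes differed between members. Over all genes with 1 read, the commonest number of covered bases was 49, the span of 1 read. In the control library 8 of the 15 genes over the floor had at least 80% of their gene model covered, among them CG6295 (98.0%), Jon65Aiii (97.0%), Jon65Aiv (96.4%), yip7 (94.7%) and alphaTry (80.9%). All 8 were at least 10-fold lower in the sucralose library. They were picked by coverage in the control library, where they had more reads, so this count is a description and lends no support. Another 6 were covered under 50%: Amy-d (43.2%), Amy-p (41.4%), Jon74E (38.6%), LysC (34.3%), Jon99Cii (30.1%) and Jon99Ciii (11.5%). Among 2123 other genes of 400 to 1700 bases with 50 to 500 control reads, the median coverage was 93.0% and 1.08% were under 50%.

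The reads of some members were therefore stacked on a small part of the gene. The 166 control reads of Jon99Ciii lay on 96 of 837 bases, and the 197 of Jon99Cii on 259 of 862. The 20 control reads of betaTry lay on 88 of 802 bases, whereas its 10 sucralose reads lay on 270. Amy-p and Amy-d had similar coverage in both libraries (33.7% and 37.6% in the sucralose library). Jon99Cii with Jon99Ciii, LysB to LysE and the amylase pair are known as closely similar copies, whose identity was not computed here, and the tables hold unique reads. Levels of single copies in these groups are therefore uncertain, and the part that read assignment plays in their coverage was not tested. None of the 38 genes shares 20% or more of its exon bases with an overlapping gene in the BDGP6.54 annotation. That annotation lists LysC as a pseudogene with 242 exon bases, where the deposited table has a gene model of 487 bases. Deposited lengths equalled its exon bases for 20 members. Among those that differed were Jon74E (1323 deposited and 903 annotated bases), Jon99Ciii (837 and 1240), betaTry (802 and 1071) and LysB (486 and 611). Percent coverage depends on the gene model, and its part in the low values was not tested.

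**Figure D4:**
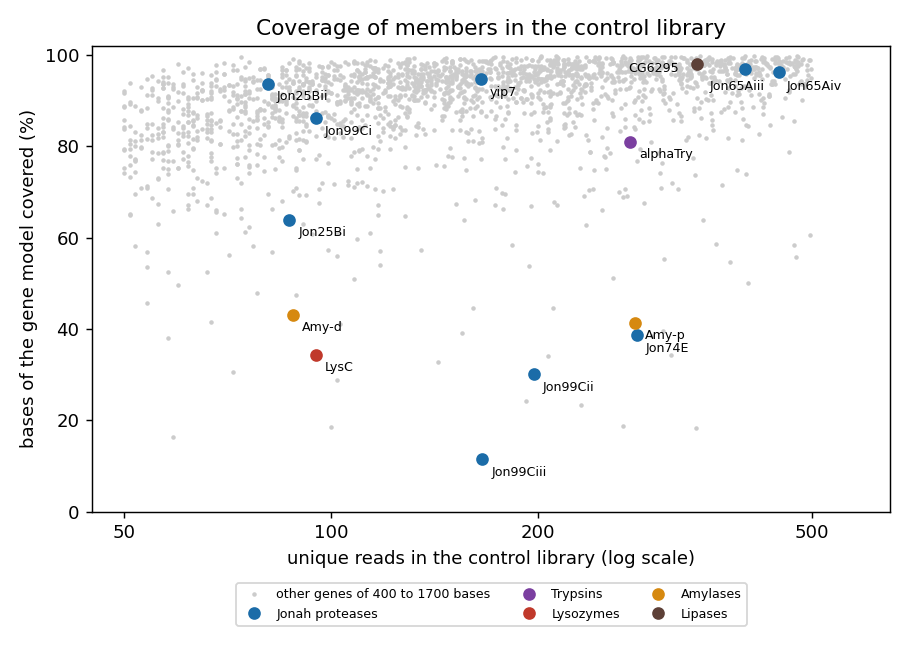
Percent of each gene model covered by reads against unique reads in the control library (log axis), for members with 50 to 500 control reads (coloured by class) and 2123 other genes of 400 to 1700 bases (grey). Jon99Ciii at 11.5% and Jon99Cii at 30.1% lie far below most other genes with as many reads, while yip7, CG6295 and the Jon65A genes lie among them.

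Most genes of related enzyme families that could be compared lay within 1.5-fold, but a larger share than of all genes was lower. These lists go by enzyme family, and not all of their genes, such as cathD, are digestive enzymes of the gut. The counts therefore do not describe gut enzymes alone. Of 79 other genes in 6 lists (serine proteases, carboxypeptidases, aspartyl proteases, lipases, lysozyme relatives and maltases), 25 passed the floor. Of these, 6 were at least 1.5-fold lower, 2 at least 1.5-fold higher and 17 between, beside 4.12% lower and 1.96% higher over all genes. At least 10-fold lower were 2 of the 25, beside 0.202% of all genes. Their median log2 difference was -0.21. The most abundant genes of the serine and aspartyl protease lists lay within 1.5-fold. The serine protease gene CG3088 had 13200 control and 10374 sucralose reads, 1.30-fold lower (1.26 to 1.33), and cathD, the lysosomal aspartyl protease gene, had 4727 and 5737, 1.19-fold higher (1.15 to 1.24). Each of these genes had more reads in the control library than all 38 members together.

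Some genes of these lists differed strongly. CG17192, a lipase gene adjacent to CG6295, had 101 control reads and 0 sucralose ones, which is at least 34.3-fold lower against 3 sucralose reads, with an exact interval that starts at 27.4-fold. CG18180, a serine protease gene, had 147 and 9 reads, 16.6-fold lower (8.53 to 37.1). In the other direction, the serine protease gene CG10472 had 43 and 80 reads, 1.83-fold higher (1.24 to 2.71), and the lipase gene CG6283 had 27 and 57 reads, 2.07-fold higher (1.29 to 3.41). The 4 other carboxypeptidase genes over the floor all lay within 1.5-fold, the largest difference being 1.30-fold lower for CG3097 (1.10 to 1.53). The relatives CG16756 and CG16799 of the lysozymes were 1.16-fold and 1.18-fold higher. Of 6 maltase genes over the floor, which encode the enzymes that act after amylase, 4 passed the 1.5-fold mark downward, and the median log2 difference was -1.06. Mal-A6 (221 and 41 reads) and Mal-A1 (308 and 70) had ratios close to those of the amylases.

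Of the 18 genes in the whole table that were at least 10-fold lower, 13 were members. The other 5 were CG17192, CG18180 and, outside any list and singled out after their values were seen, CG16826 (356 and 7 reads), whe (165 and 2) and CG5107 (162 and 4).

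Of the midgut genes other than these enzymes, 10 of 14 had fewer than 50 summed reads. Of 14 such genes, 5 had no read in either: the cholesterol transporter gene Npc1b, the amidase genes PGRP-SC1a and PGRP-SC1b, and Peritrophin-15a and Peritrophin-15b. The gene mex1, named for its midgut expression, had 6 and 2 reads, Vha100-4 had 0 and 2, LManV had 1 and 1, and LManVI had 0 and 3. PGRP-SC2 had 19 and 7 reads, 2.77-fold lower (1.11 to 7.79). GATAe, the endodermal GATA factor that maintains midgut gene expression, had 1 control read and none. The 4 of the 14 that passed the floor, Gal, Myo31DF, nub and lab, are also expressed outside the gut and lay within 1.5-fold. The 14 genes summed to 1380 and 1375 reads, mostly of Gal and Myo31DF, a ratio of 1.02 (0.949 to 1.10). Whether different amounts of gut tissue or gut RNA entered the 2 samples was not tested.

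Of the 10 genes listed as regulators, not all of which are known to act in the midgut, sug and srp passed the 1.5-fold mark upward. In the fly midgut, dietary sugar lowers amylase and lipase expression through the sugar sensor Mondo, its target sug and the activin ligand dawdle. The gene sug had 196 and 548 reads, 2.74-fold higher (2.33 to 3.25). The dawdle gene daw had 838 and 1213 reads, 1.42-fold higher (1.30 to 1.55), and its receptor gene babo was 1.20-fold higher (1.12 to 1.28). Mondo was 1.19-fold higher (1.10 to 1.28), and its partner gene bigmax was at 1.17 (0.968 to 1.41). Smox, the Smad factor of that pathway, was at 1.04 (0.962 to 1.13). The GATA factor gene srp, which acts in fat body and blood cells, was 1.62-fold higher (1.46 to 1.80). Hr96, the nuclear receptor that promotes mag expression, had 464 and 440 reads. Of 8 listed regulators with at least 50 summed reads, srp among them, 2 passed the 1.5-fold mark upward and none downward, beside 1.96% and 4.12% of all genes. Med was not matched to the files. The data do not tell which cells of the head the reads of these regulators came from, so their levels cannot be read as those of gut cells.

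Markers of the head itself were present at high levels in both libraries. The 9 photoreceptor genes summed to 6.60% of control and 8.91% of sucralose reads, and the neuronal genes, without para, which was not matched to the files, to 0.598% and 0.577%. The median differences of markers of other tissues were smaller than that of the enzymes, but single genes differed as much as the amylases. The fat body gene Lsp2 (177 and 32 reads) was 5.64-fold lower (3.85 to 8.49). Obp99b of that list was 2.96-fold lower (2.59 to 3.40), and the muscle gene Act88F 3.09-fold lower (2.11 to 4.60). Among 8 muscle genes with enough reads, 5 passed the 1.5-fold mark downward, which 4.12% of all genes did (median -0.68, sums of 38815 and 27696 reads). So did 2 of 5 fat body genes (median -0.45, sums of 52151 and 52730 reads). Most reads of the fat body sum were those of apolpp (48766 and 50501), the 1 gene of the 5 that was higher. All 4 hemocyte genes (5141 and 4851 reads) and the 1 Malpighian tubule gene over the floor, the kinin receptor gene Lkr with 78 reads in each library, lay within 1.5-fold. None of these lists held a gene at 0 in both libraries among those matched. Their part in the difference of the digestive enzymes was not tested.

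**Figure D5:**
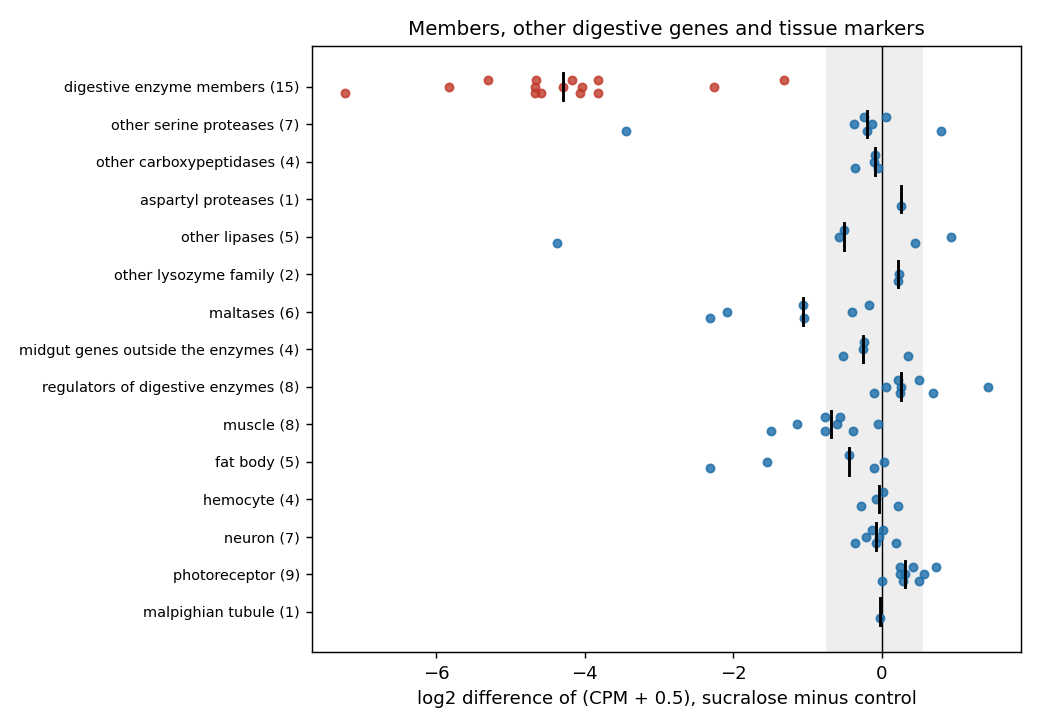
Log2 difference of (CPM + 0.5), sucralose minus control, of each gene with at least 50 summed reads, for the members (red) and each other list (blue), with the number of genes in brackets, black bars at the medians and a grey band holding the central 95% of all 8889 genes. The median is -4.29 for the members and -1.06 for the maltases, and lies between -0.68 and 0.32 in the other lists.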

How the data were processed

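The members and gene lists were chosen with earlier results of these data known. The authors deposited 1 table per library with the count of unique reads, the gene model length, the percent of its bases covered and the RPKM of each gene with at least 1 read, per the file headers. The deposited counts sum to the header totals, so an unlisted gene is taken as 0 reads. RPKM and percent coverage are printed as the authors deposited them. The sources used here do not give the aligner, build, annotation release or strandedness. Symbols were matched by FlyBase identifier, and 496 of 12083 genes had no match.

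Counts were scaled with TMM factors (edgeR 4.0.16, R 4.3.3). Folds are ratios of scaled counts with exact binomial (Clopper-Pearson) 95% intervals, computed with SciPy 1.17.1 and tested on simulated data. Reads amplified by PCR and not tagged by molecular identifiers are not independent molecules, so intervals and limits cover counting error only. Calls used log2(CPM + 0.5) and a floor of 50 summed reads. All members are accounted for, and of each other list the text may name the most abundant gene, the 3 with the largest differences and any regulator. Midgut markers are named beyond this rule, to show which had few or no reads. The genes under other observations and those outside any list also fall beyond it. The BDGP6.54 annotation served only for neighbours, overlaps and exon lengths. DESeq2 1.42.0 gave size factors for 1 alternative.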

Additional observations from a re-analysis of the deposited data

How the results depend on the processing

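With 1 library per diet no replicate could be left out, and every value compares 2 libraries. No paired analysis was possible because each group holds 1 sample. Scaling by total counts, upper quartile or DESeq2 size factors in place of TMM moved no fold by more than 0.88% and changed no count of members. Of the 15 members at least 1.5-fold lower, 7 remained with a floor of 200 reads, and 8 among members covered by at least 80%, a set chosen after seeing the data. Of the 13 at least 10-fold lower, 1 remained with a pseudocount of 5 CPM, 6 with the floor of 200 and 8 among covered members. Without a floor, 2 members were at least 1.5-fold higher in place of 0. Genes of the other enzyme lists at least 1.5-fold lower numbered 14 without a floor in place of 6. Those at least 1.5-fold higher numbered 5 without a floor, 0 with a floor of 200 and 0 with a pseudocount of 5, in place of 2. The summed fold of all members, 23.2, was 15.3 without the most abundant gene of each class and 68.9 over covered members. Coverage was that of the control library, where these genes had more reads, so choosing by it favours larger folds. Without its most abundant gene, the fold was 1.43 in place of 14.2 for trypsins, 7.50 in place of 14.4 for lysozymes and 2.67 in place of 4.19 for amylases. Over covered members the trypsin fold, alphaTry alone, was 46.2. Each alternative changes by construction which genes are counted or summed, or the constant added. Depth limits the genes with 3 or fewer reads, for which no fold is given.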

Other observations

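Several genes of the other enzyme lists had fewer than 50 summed reads and the same direction as the members over the floor. They were singled out after their values were seen. The carboxypeptidase gene CG17633 had 41 control reads and 1 sucralose read, and the trypsin gene kappaTry had 19 and 0. Bace (20 and 4 reads), Mal-A8 (12 and 1) and CG30062 (8 and 1) were also lower, with intervals above 1. Without a floor, 14 genes of these lists were at least 1.5-fold lower and 5 at least 1.5-fold higher. Other genes of these lists under the floor went the other way, with intervals that include no difference. Among them were Ser8 (1 and 4 reads), CG14820 (1 and 5), CG6277 (1 and 6) and Lip3 (9 and 18). The serine protease gene CG18179, which lies between CG18180 and CG8329, had 14 and 3 reads, 4.76-fold lower (1.33 to 25.8). CG8329, the next gene in that row, had 10372 and 10983 reads, 1.04-fold higher (1.01 to 1.07).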
